A study of Mus musculus with 9 samples.

Results

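The genes described here encode partners and inhibitors of MyoD: the 4 Id genes (Id1, Id2, Id3 and Id4), the 3 E-protein genes (Tcf3, Tcf4 and Tcf12) and 3 genes of proteins that restrain MyoD (Mdfi, Mdfic and Msc). They were taken by name, as 10 of the 35675 genes with estimated counts, and all 10 were among the 15714 genes with enough counts to be tested. Msc met this count filter only through its F/R/C libraries. The RNA came from 9 libraries of mouse embryonic fibroblasts (MEFs), 3 per group, and the fibroblasts of every group carried the Dmdmdx genotype, a nonsense mutation of the dystrophin gene that serves as a model of Duchenne muscular dystrophy. The groups were untreated MEFs, MEFs with ectopic MyoD, and MEFs with ectopic MyoD plus small molecules abbreviated F/R/C, which the labels do not spell out; the last group is called F/R/C below. The labels give neither the vector or promoter of MyoD, the doses, the time of harvest nor whether replicates were separate cultures, so each p-value reflects library-to-library spread, which may be technical. Polyadenylated RNA was sequenced to 21112071 to 24291056 estimated counts per library.

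MyoD is a basic helix-loop-helix (bHLH) transcription factor. It binds the E-box, a short DNA element, as a dimer with an E protein, a ubiquitous bHLH partner, and such dimers switch on skeletal muscle genes. Id proteins carry the helix-loop-helix but no basic region, so they take up E proteins in dimers that do not bind DNA, and their genes are classic targets of bone morphogenetic protein (BMP) signalling. I-mfa, encoded by Mdfi, and its relative encoded by Mdfic bind myogenic bHLH factors and hold them back, and musculin (MyoR), encoded by Msc, is a bHLH repressor that shares E-boxes and E proteins with MyoD.

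Myod1 itself was checked before its partners. Its level in TPM (relative abundance scaled for transcript length and library depth) was 2.82, 0.460 and 6.50 in MEF replicates 1, 2 and 3. It was 8.14, 11.0 and 19.6 with MyoD alone and 261, 260.3 and 237 with F/R/C. The 3 groups did not overlap, but the log2 fold change of MyoD over MEF was 1.97 ± 0.74 (SE) with an adjusted p of 0.886 (edgeR quasi-likelihood test, Benjamini-Hochberg over all genes tested), against 6.61 ± 0.89 (adjusted p = 0.00109) for F/R/C over MEF and 4.65 ± 0.81 (adjusted p = 0.00398) for F/R/C over MyoD. Whether reads came from the introduced or the resident gene cannot be told apart in these tables. The 10 skeletal muscle markers summed to 5.54 and 4.23 CPM (counts scaled to equal effective library size, with no length correction) in MEF replicates 1 and 2 but to 533 in MEF replicate 3, to 868 to 2882 with MyoD alone and to 31960 to 43035 with F/R/C. The 10 fibroblast markers, all detected in every library, summed to 21026 to 83899 CPM in MEF, 12813 to 36985 in MyoD and 6682 to 9929 in F/R/C. The 7 epithelial markers summed to at most 7.74 CPM and the 8 macrophage markers to at most 15.1 CPM in any library. Among the epithelial markers, Krt18 reached 10.1 TPM (MyoD replicate 3) and Cldn7 1.88 TPM (MyoD replicate 2). Epcam was at most 0.739 TPM and Cdh1 at most 1.05 TPM. Of the 3 epithelial markers with enough counts to be tested, 2 rose and 0 fell in each F/R/C comparison. Of all genes, 19.5% rose over MEF and 17.8% over MyoD. The 8 endothelial markers summed to 5.29 to 56.1 CPM, the 8 neural and glial markers to 25.5 to 72.0 CPM and the 6 cartilage markers to 16.04 to 272 CPM. Erg reached 39.0 TPM (MEF replicate 1) and Vwf 5.63 TPM (F/R/C replicate 3), while the other endothelial markers stayed under 1 TPM. Of the neural and glial markers, Tubb3 reached 50.3 TPM (MEF replicate 3) and Sox2 39.6 TPM (MyoD replicate 3). Map2 reached 24.3 TPM (MyoD replicate 2), while Rbfox3 and Olig2 were at 0 in every library. As in any bulk sample, fewer cells of a type and less RNA per cell cannot be told apart.

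Across the 10 genes, few group differences exceeded the spread between libraries, tested without pairing by replicate number. MEF and MyoD libraries of equal number deviated together from their group means (Pearson r of 0.711, 0.715 and 0.775). For MyoD alone, part of that spread was thus shared by both groups. With the replicate number as a block, 0 of the 10 passed in MyoD against MEF as well. With MyoD alone 0 of the 10 changed, where 0% of all 15714 genes were called at an adjusted p under 0.05; at an unadjusted p under 0.05, 1 of the 10 (Mdfic) passed against 4.66% of all genes, and DESeq2 called 160 genes higher and 11 lower but again 0 of the 10. In F/R/C against MEF, Msc rose and Mdfic fell, 2 of the 10 against 37.6% of all genes (19.5% higher and 18.1% lower); 3 of the 10 and 47.8% of all genes passed at an unadjusted p under 0.05. In F/R/C against MyoD, Msc alone rose, 1 of the 10 against 33.9% of all genes (17.8% higher and 16.1% lower); 1 of the 10 and 45.4% of all genes passed unadjusted. Both F/R/C comparisons use the same F/R/C libraries and are not independent. The median log2 fold change of the 10 genes was 0.03, -0.27 and -0.37 in the 3 comparisons (MyoD over MEF, F/R/C over MEF, F/R/C over MyoD), beside -0.01, -0.04 and -0.02 for all genes tested. The libraries of the groups did not overlap for 1 of the 10 genes with MyoD alone (7.52% of all genes), for 4 in F/R/C against MEF (53.2%) and for 2 in F/R/C against MyoD (49.8%). The plot of fold changes sets the calls beside the standard errors.

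**Figure D1:**
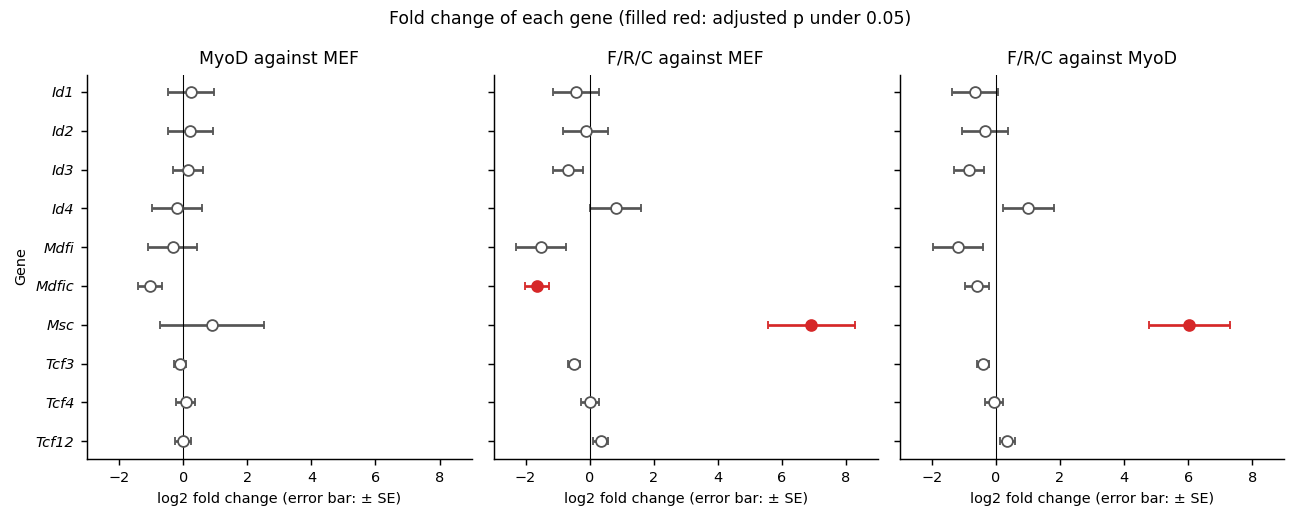
Log2 fold change (x axis, log2 units) with its standard error (bars) for each of the 10 genes (y axis) in the 3 comparisons; filled red points passed an adjusted p under 0.05. Msc stands at 6.92 and 6.03 in the F/R/C comparisons and Mdfic at -1.65 in F/R/C against MEF, while every other point is open.

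Id3 had the highest level of the 7 inhibitor genes in every library, and Id1 to Id3 varied widely within groups. Id3 (chr4:136143497-136145755, GRCm38, plus strand) had 183, 645 and 421 TPM in MEF, 256, 670 and 477 in MyoD and 184, 266 and 146 in F/R/C. Id1 (chr2:152736251-152737410, plus strand) had 68.6, 426 and 126 TPM in MEF, 88.9, 485 and 171 in MyoD and 93.8, 165 and 99.6 in F/R/C. Id2 (chr12:25093799-25097140, minus strand) had 19.0, 135 and 37.7 TPM in MEF, 31.8, 148 and 48.7 in MyoD and 37.1, 61.2 and 31.9 in F/R/C. In every group replicate 2 was the highest library for these 3 genes, and all of their groups overlapped. By TPM, which is scaled for transcript length, Id3 exceeded Id1 and Id1 exceeded Id2 in each of the 9 libraries.

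Id4 (chr13:48261228-48266026, plus strand), the Id gene of lowest level here, had 0.732, 6.12 and 4.63 TPM in MEF, 0.827, 6.69 and 2.81 in MyoD and 5.12, 5.18 and 4.86 in F/R/C. On the CPM scale all 3 F/R/C libraries (12.8, 13.6 and 16.6) lay just above the highest MEF library (12.7), and on the TPM scale they lay inside the MEF range, so the separation depends on the unit. The log2 fold change over MEF was 0.81 ± 0.79 with an adjusted p of 0.450 (edgeR), and over MyoD 1.00 ± 0.79 with an adjusted p of 0.354. Id4 overlaps the antisense gene A330033J07Rik and the long noncoding RNA gene Gm49291, and since the strand setting of the counting is not given, their reads may be shared.

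None of the 4 Id genes passed the test in any comparison, and their standard errors were wide. For F/R/C over MyoD the log2 fold changes were -0.66 ± 0.72 for Id1, -0.35 ± 0.71 for Id2 and -0.84 ± 0.46 for Id3, with adjusted p-values of 0.505, 0.734 and 0.192 (edgeR). For MyoD over MEF they were 0.24 ± 0.71, 0.22 ± 0.71 and 0.15 ± 0.46, each with an adjusted p of 1. The highest MEF library exceeded the lowest 5.80-fold in CPM for Id1, 6.73-fold for Id2, 3.44-fold for Id3 and 8.04-fold for Id4, where the median gene of 10435 well expressed ones (average log2 CPM of 3 or more) varied 1.45-fold. In MyoD the same ratios were 5.20, 4.16, 2.28 and 7.55 against a median of 1.46, and in F/R/C they were 1.83, 1.73, 1.63 and 1.30 against a median of 1.46. The Id genes thus varied over more of their range among untreated and MyoD libraries than among F/R/C libraries; the difference in variation was not tested.

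The log2 ratio of the MyoD to the MEF library of the same number was 0.30, 0.14 and 0.50 for Id1, 0.74, 0.05 and 0.46 for Id2 and 0.52, -0.07 and 0.28 for Id3 (CPM, numbers 1, 2 and 3). For Id4 it was 0.14, 0.05 and -0.65. Only Id3 in number 2 and Id4 in number 3 were lower with MyoD; the other ratios were above 0.

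**Figure D2:**
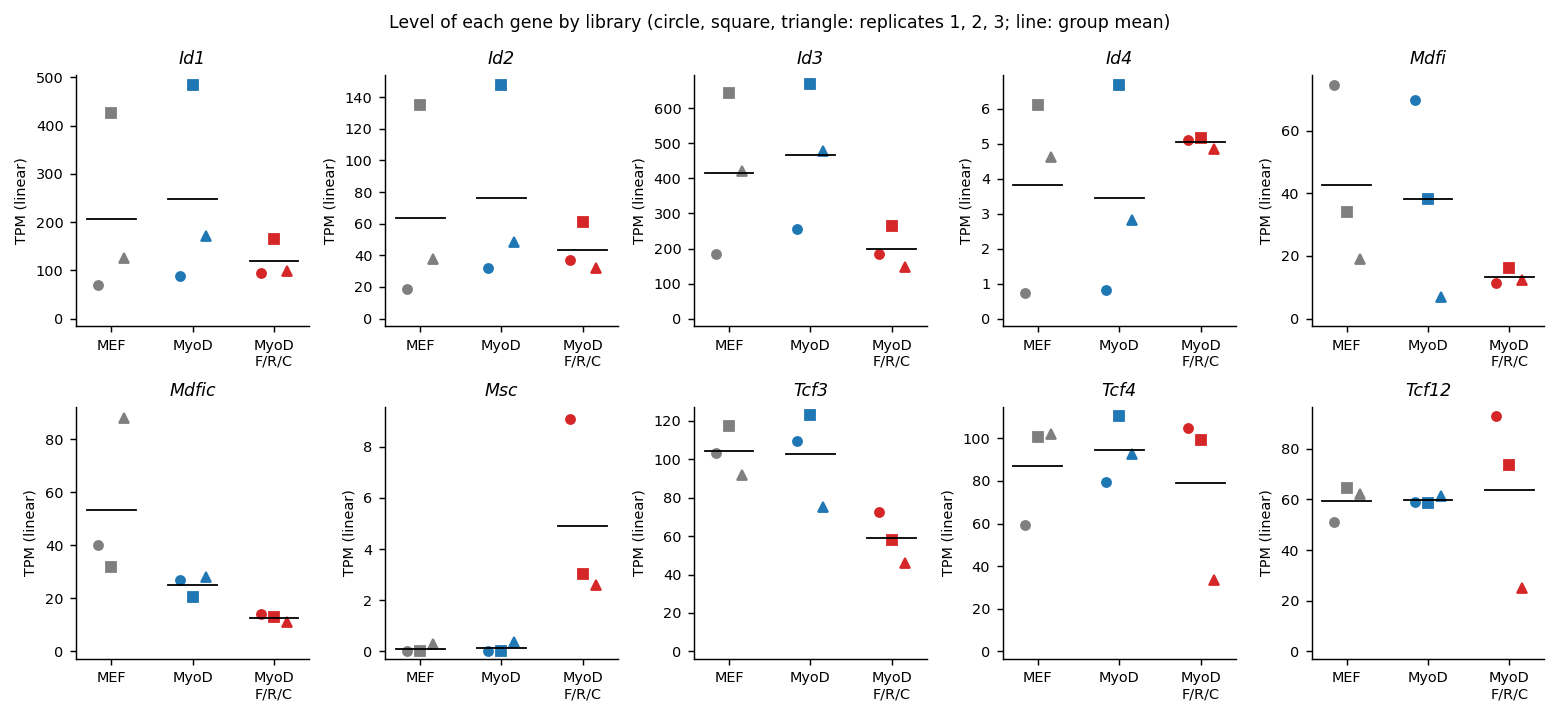
TPM (y axis, linear, own scale per gene) of each of the 10 genes in the 9 libraries by group (x axis); circles, squares and triangles are replicates 1, 2 and 3, and lines are group means. Replicate 2 is the highest MEF and MyoD library for all 4 Id genes, Mdfic steps down from MEF to F/R/C, and Msc is near 0 outside F/R/C.

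Over the 9 libraries, log2(CPM + 1) of Id1 and Id2 correlated at a Pearson r of 0.975, Id1 and Id3 at 0.838, and Id3 and Id4 at 0.401. Among 10199 other well expressed genes, Fam84a was nearest to both Id1 (r = 0.948) and Id2 (r = 0.963), and Phkb, a subunit gene of phosphorylase kinase, followed at 0.922 and 0.942, with Agap1 at 0.958 for Id2 and Dcaf4 at 0.908 for Id1. Hs3st1 (0.973), Aplp1 (0.961) and Vps11 (0.960) were nearest to Id3, and Angpt2 (0.969), an angiopoietin gene, Gpc3 (0.949) and Spint2 (0.939) to Id4. These likenesses describe 9 libraries that share groups and replicate numbers, and they carry no p.

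DNA before RefSeq start sites of Id2 and Id4 is shown because BMP-activated SMAD proteins are known to act on GC-rich elements of Id promoters. Windows of 250 bases before RefSeq gene starts (RefSeq, GRCm38.p6) were found for 7 of the 10 genes, with 10 windows, and 4 motifs were searched on both strands. The palindrome GGCGCC stood in 2 of the 10 windows, those of Id2 and Id4, and in 9.59% of all 32851 windows. The E-box CANNTG stood in 6 of 10 windows and in 66.2% of all, and the form of it that spells CAGCTG in 2 of 10 and in 13.0% of all. The cyclic AMP response core TGACG stood in 3 of 10 windows (Id3, Id4 and Mdfi) and in 17.8% of all. Capitals mark GGCGCC and the E-box in the part of the Id2 window that lies outside Id2 exons (chr12:25096254-25096342, minus strand) and in the Id4 window (chr13:48260866-48261115, plus strand), each written 5′ to 3′.
Id2 upstream region: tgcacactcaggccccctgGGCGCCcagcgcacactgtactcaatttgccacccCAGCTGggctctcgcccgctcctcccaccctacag
Id4 upstream region: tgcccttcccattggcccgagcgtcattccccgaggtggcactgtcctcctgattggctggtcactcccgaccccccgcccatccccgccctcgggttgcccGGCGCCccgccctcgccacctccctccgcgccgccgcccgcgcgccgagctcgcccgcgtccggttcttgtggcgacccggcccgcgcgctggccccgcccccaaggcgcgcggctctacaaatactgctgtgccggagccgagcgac
The Id2 stretch of 89 bases holds 1 GGCGCC and 1 CAGCTG, and the Id4 window holds 1 GGCGCC and 0 matches to CANNTG. By the annotated span of Id2 (chr12:25093799-25097140) the Id2 stretch lies inside the gene, outside its exons. It is upstream only of the RefSeq start. The Id3 window (chr4:136143572-136143821) also starts inside the annotated gene, and Id1 had no window. A match is a description of letters and no evidence of binding.

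Among the genes of MyoD-restraining proteins, Msc rose with F/R/C, Mdfic fell, and Mdfi was too variable to call. Msc (chr1:14753346-14755992, minus strand) had 0, 0 and 2 counts in MEF, 0, 0 and 4 in MyoD and 184, 50 and 58 in F/R/C. It met the count filter only through these F/R/C libraries, so its calls are not independent of that filter. In TPM the F/R/C libraries stood at 9.09, 3.03 and 2.59, above every other library (at most 0.348). The log2 fold change was 6.92 ± 1.36 over MEF (adjusted p = 0.00509) and 6.03 ± 1.26 over MyoD (adjusted p = 0.00817, edgeR). Most control libraries had a count of 0, which allows up to 3 counts or 0.113 to 0.140 CPM in each of them. The fitted log2 fold changes therefore depend on the tool's prior count. The ratio of summed counts per effective library size was 149 over MEF (95% exact interval 40.9 to 1237) and 76.3 over MyoD (29.5 to 282), intervals that cover counting error only.

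Per length, Msc remained a minor RNA in F/R/C: Id4 was the only other gene of the 10 with a library under 10 TPM there. MEF replicate 3 and MyoD replicate 3, the only control libraries with any Msc count, were also those with the most skeletal muscle marker RNA of their groups (533 and 2882 CPM); the part of muscle RNA in the Msc counts was not tested. Without MEF replicate 3, which leaves Msc at 0 in MEF, the fitted log2 fold change over MEF was 9.57 (adjusted p = 0.00999), and without MyoD replicate 3 that over MyoD was 9.61 (adjusted p = 0.00664). Msc overlaps the antisense gene Gm9947, so a share of its reads may belong there.

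Mdfic (chr6:15720661-15802169, plus strand) fell from MEF to F/R/C, and the MyoD libraries lay in between. Its CPM was 64.7, 49.6 and 142 in MEF, 43.1, 30.9 and 49.5 in MyoD and 26.1, 25.0 and 30.8 in F/R/C, and the 3 groups did not overlap. F/R/C over MEF gave a log2 fold change of -1.65 ± 0.38 with an adjusted p of 0.0101 (edgeR), the only call for this gene. MyoD over MEF gave -1.05 ± 0.37 with an adjusted p of 0.857, and F/R/C over MyoD gave -0.59 ± 0.37 with an adjusted p of 0.247. MEF replicate 3 stood apart at 142 CPM, and without it the fall from MEF to F/R/C was -1.12 on the log2 scale with an adjusted p of 0.0115. The log2 ratio of the MyoD to the MEF library of the same number was -0.58, -0.68 and -1.52, below 0 in all 3 numbers. The fibroblast markers also summed lower in F/R/C, where Col1a1, Col1a2 and Fbn1 passed the test against MEF (3 of 10, beside 18.1% of all genes that fell). The part of fibroblast RNA in the Mdfic fall was not tested. The genes nearest to Mdfic over the 9 libraries were Ywhah (r = 0.966), a 14-3-3 protein gene, Fmr1 (0.958), an RNA-binding protein gene, and Gstm2 (0.952).

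Mdfi (chr17:47815328-47834691, minus strand) ranged widely within groups. It had 45.4, 17.4 and 9.50 CPM in MEF, 37.3, 16.6 and 3.80 in MyoD and 6.84, 7.93 and 10.4 in F/R/C. Replicate 1 was the highest library and replicate 3 the lowest in both MEF and MyoD, and the F/R/C libraries lay in the lower part of the range. The cartilage markers summed to 272, 123 and 28.0 CPM in MEF, 174, 56.9 and 20.4 in MyoD and 18.5, 25.0 and 16.04 in F/R/C. From 0 to 2 of the 6 were at 0 in a library. Within MEF and MyoD these sums had the same order of replicates as Mdfi. The fibroblast marker sums had that order too (83899, 28875 and 21026 CPM in MEF, 36985, 14235 and 12813 in MyoD). By TPM, Col1a1, Col3a1, Fbn1 and Lum kept the order in both groups. Col1a2, Dcn, Postn, Pdgfra, Thy1 and Vim broke it in MEF, in MyoD or in both. Thy1 ran the other way, at 297.5, 804 and 2491 TPM in MEF and 228, 718 and 1786 in MyoD. Of the cartilage markers, Comp and Sox9 kept the order, while Col2a1 and Col9a1 were highest in replicate 2 of both groups. The part of either list in the Mdfi levels was not tested. The log2 fold change of F/R/C was -1.52 ± 0.78 over MEF (adjusted p = 0.155) and -1.20 ± 0.78 over MyoD (adjusted p = 0.260, edgeR). Ubtf (r = 0.969), a factor of ribosomal RNA transcription, Sertad4 (0.968) and Vill (0.960) were nearest to it, and Tcf3, also one of the 10 genes, correlated with it at 0.784.

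Of the 3 E-protein genes, 0 passed the test in any comparison. Their highest library exceeded the lowest 1.15- to 1.65-fold in CPM within MEF and 1.13- to 1.41-fold within MyoD, less than for any Id gene, but 1.18- to 1.99-fold within F/R/C, where the ranges of both gene groups overlapped. Tcf3 (chr10:80409514-80433647, minus strand), the gene of E12 and E47, had 134, 139.8 and 113 CPM in MEF, 135, 132 and 95.6 in MyoD and 98.9, 84.1 and 91.3 in F/R/C. All F/R/C libraries lay below all MEF libraries, and 1 of them lay above the lowest MyoD library. The log2 fold change over MEF was -0.50 ± 0.18 with an adjusted p of 0.0613, and over MyoD -0.40 ± 0.18 with an adjusted p of 0.122 (edgeR). Without MyoD replicate 3 these were -0.51 (adjusted p = 0.0393) and -0.55 (adjusted p = 0.0474), so the Tcf3 call changed when 1 library was left out. Usp21 (r = 0.986), a deubiquitinase gene, Slx1b (0.984) and Brms1l (0.978) were nearest to it.

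Tcf4 (chr18:69343356-69689079, plus strand), the gene of E2-2, had 162, 260.03 and 267 CPM in MEF, 203, 265 and 257 in MyoD and 266, 270.1 and 153 in F/R/C. Its groups overlapped fully, with a log2 fold change of 0.00 ± 0.29 over MEF (adjusted p = 0.995) and -0.07 ± 0.29 over MyoD (adjusted p = 0.869). Tcf12 (chr9:71842688-72111871, minus strand), the gene of HEB, had 109.5, 118.5 and 126 CPM in MEF, 111, 114 and 125 in MyoD and 189, 164 and 95.0 in F/R/C. F/R/C replicates 1 and 2 lay above all 6 control libraries and replicate 3 lay below them, and the fold changes of 0.34 ± 0.24 over MEF (adjusted p = 0.296) and 0.36 ± 0.24 over MyoD (adjusted p = 0.284) did not pass. Without F/R/C replicate 3 they were 0.58 (adjusted p = 0.0250) and 0.60 (adjusted p = 0.0273), so this library decides the call for Tcf12.

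F/R/C replicate 3 stood apart for long transcripts. Relative to the other F/R/C libraries its median log2 difference was 0.38 for the 3478 genes with the shortest transcripts (median 1324 bases) and -0.42 for the 3478 with the longest (median 4529 bases), while in every MEF and MyoD library these medians lay between -0.10 and 0.09. Tcf4 and Tcf12 have mean transcript lengths of 4368 and 3356 bases and the Id1 to Id3 genes of 955, 1263 and 1181 bases. The part of transcript length in the low Tcf4 and Tcf12 values of this library was not tested. Rbpj (r = 0.953), the DNA-binding effector gene of Notch signalling, Ccdc50 (0.954) and Cblb (0.952) were nearest to Tcf4, and Cdk12 (0.941) and Ice1 (0.937) were among the nearest to Tcf12.

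Per length, Tcf3 exceeded Tcf12 in every MEF library. In MEF, Tcf3 stood at 104 ± 12.7 TPM (SD, n = 3), Tcf4 at 87.2 ± 24.2 and Tcf12 at 59.2 ± 7.13, and in F/R/C at 58.8 ± 13.3, 79.1 ± 39.5 and 63.7 ± 35.1. Tcf3 and Tcf4 overlapped in MEF, and all 3 overlapped in F/R/C. In TPM, unlike in CPM, all F/R/C libraries (72.5, 58.1 and 45.9) lay below the lowest MyoD library (75.2) for Tcf3. Tcf3 made up 48.3, 41.6 and 36.0% of the summed E-protein TPM in MEF, 44.2, 42.1 and 32.8% in MyoD and 26.8, 25.2 and 44.0% in F/R/C, so that F/R/C replicates 1 and 2 were lowest and replicate 3 was within the control range. Tcf12 made up 22.9 to 24.2% in MEF, 20.0 to 26.7% in MyoD and 34.4, 31.8 and 23.8% in F/R/C.

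In TPM, summed Id RNA exceeded summed E-protein RNA in all 9 libraries; in CPM, which is not scaled for length, the ratio was below 1 in 7 of the 9. The ratio of the summed TPM of Id1 to Id4 to that of Tcf3, Tcf4 and Tcf12 was 1.27, 4.29 and 2.30 in MEF (mean 2.62 ± 1.53, SD, n = 3), 1.52, 4.48 and 3.05 in MyoD (3.02 ± 1.48) and 1.19, 2.15 and 2.71 in F/R/C (2.02 ± 0.77). The groups overlapped, and the ratio was highest in replicate 2 of MEF and MyoD. It is a ratio of RNA and says nothing of protein, and it carries no test. The denominator of F/R/C replicate 3 was the smallest, with 104 TPM of E-protein RNA against 214 to 293 TPM in the other libraries. This was the library with a median log2 difference of 0.38 for the shortest and -0.42 for the longest transcripts. The part of transcript length in its Id ratio, its Myod1 ratio and its Tcf3 share was not tested.

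The balance with Myod1 differed far more between groups than the balance with Id genes did. Myod1 TPM per summed E-protein TPM was 0.0132, 0.00163 and 0.0254 in MEF, 0.0328, 0.0377 and 0.0857 in MyoD and 0.967, 1.13 and 2.27 in F/R/C. Per summed Id TPM it was at most 0.0281 in MEF and MyoD and 0.815, 0.524 and 0.837 in F/R/C. The summed TPM of Mdfi, Mdfic and Msc was 115, 66.0 and 108 in MEF, 96.5, 58.6 and 35.1 in MyoD and 34.5, 32.3 and 25.7 in F/R/C, so that all F/R/C libraries lay below all others. These sums and ratios are descriptions without a test.

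**Figure D3:**
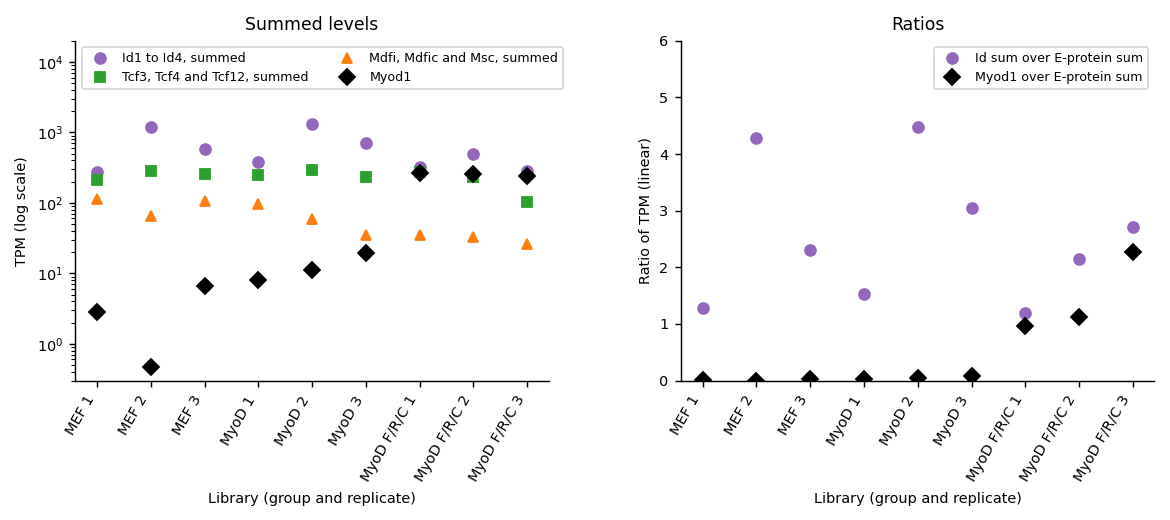
Left, summed TPM (y axis, log scale) of the Id genes, the E-protein genes, the 3 inhibitor genes and Myod1 in each library (x axis); right, the Id and Myod1 levels as ratios to the E-protein sum (y axis, linear). The Id ratio spans 1.19 to 4.48 with overlapping groups, whereas the Myod1 ratio is at most 0.0857 in MEF and MyoD and at least 0.967 in F/R/C.

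The transcripts of the 10 genes were examined because a gene total can hide a shift between forms. Of their 126 transcripts, 53 could be tested. With MyoD alone 0 of the 53 passed, beside 0.0111% of all 44847 transcripts tested, and 1 passed unadjusted, beside 3.38%. In F/R/C against MEF 2 of the 53 passed, beside 11.6%, and 7 unadjusted, beside 25.9%. In F/R/C against MyoD 1 passed, beside 7.89%, and 3 unadjusted, beside 24.1%. Msc-201 rose in both F/R/C comparisons (adjusted p = 0.0235 and 0.0489, edgeR). It stood at 0 TPM in every MEF library and at most 0.0867 TPM in MyoD. It therefore met the count filter only through F/R/C, and its calls are not independent of that filter. Its call against MyoD was lost without any 1 of the 9 libraries. Its call against MEF was lost without any 1 of the MEF or F/R/C libraries. Mdfic-206 fell against MEF, with a log2 fold change of -5.00 ± 1.13 (adjusted p = 0.0261), a call lost without MEF replicate 2 or 3 or any F/R/C library. Mdfic-206 is Mdfic-201 with 4 more bases at its end, and a further annotated Mdfic transcript is identical to Mdfic-201, so short reads can hardly be divided among the 3. The summed TPM of the 3, at 26.4, 20.8 and 56.5 in MEF, 18.4, 14.0 and 19.5 in MyoD and 9.16, 8.15 and 9.26 in F/R/C, was lowest in F/R/C and did not overlap between groups, as for the gene.

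Tcf3 makes E12 and E47 by a choice between 2 neighbouring exons that each encode a bHLH domain, and they are printed because they are the DNA-binding and dimerising part that MyoD meets. The upstream exon (chr10:80412827-80413062, 236 bases, coding) gives E12 and the downstream exon (chr10:80410398-80410624, 227 bases, coding) gives E47, both on the minus strand of GRCm38 and read from GENCODE M21 transcripts. They are written 5′ to 3′, and capitals mark bases that differ or have no partner in their alignment.
Tcf3 upstream bHLH exon: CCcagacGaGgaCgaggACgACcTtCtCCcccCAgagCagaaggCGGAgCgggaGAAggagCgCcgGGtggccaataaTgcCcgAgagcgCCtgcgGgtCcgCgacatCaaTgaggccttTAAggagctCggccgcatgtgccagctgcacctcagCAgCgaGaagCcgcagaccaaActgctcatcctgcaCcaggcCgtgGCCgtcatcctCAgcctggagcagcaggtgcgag
Tcf3 downstream bHLH exon: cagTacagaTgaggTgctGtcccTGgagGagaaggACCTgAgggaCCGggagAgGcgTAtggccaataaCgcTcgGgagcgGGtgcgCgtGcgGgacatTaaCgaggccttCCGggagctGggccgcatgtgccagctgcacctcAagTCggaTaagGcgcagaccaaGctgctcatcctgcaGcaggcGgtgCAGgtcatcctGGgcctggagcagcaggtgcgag
Over 225 aligned pairs 80.4% of bases were identical. Transcripts with the downstream exon made up 69.2, 62.3 and 68.9% of the TPM of transcripts with either exon in MEF, 68.8, 59.7 and 73.5% in MyoD and 69.6, 62.0 and 63.5% in F/R/C. The groups overlapped, with means of 66.8 ± 3.92%, 67.3 ± 7.01% and 65.0 ± 3.99% (SD, n = 3), so no shift between the exons was detectable at this spread.

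Tcf12 has an internal start, used by 4 of its transcripts, from which a shorter HEB protein begins; 1 of the 4 is annotated as a retained intron, with no protein. Its coding part of 69 bases (chr9:71895930-71895998, GRCm38, minus strand, from GENCODE M21) is printed because reads over it belong to the short form, with the start codon in capitals, 5′ to 3′.
Tcf12 internal-start coding exon: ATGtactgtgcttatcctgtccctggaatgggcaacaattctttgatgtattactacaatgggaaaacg
These transcripts made up 6.39, 12.8 and 4.90% of Tcf12 TPM in MEF, 13.7, 13.5 and 18.6% in MyoD and 29.2, 27.5 and 22.0% in F/R/C, and the 3 groups did not overlap. Their summed TPM was 3.27, 8.24 and 3.04 in MEF, 8.05, 7.92 and 11.4 in MyoD and 27.2, 20.2 and 5.47 in F/R/C, so that in F/R/C replicate 3 the level was within the range of MEF while the Tcf12 transcripts from the upstream starts were low (19.4 TPM). This grouping was chosen after the transcript values were seen and gets no test. The most abundant of these 4 transcripts in F/R/C had 9.27 ± 3.57 TPM in F/R/C against 3.54 ± 2.69 in MEF (SD, n = 3) and a log2 fold change in counts of 1.81 ± 0.56 with an adjusted p of 0.0757 (edgeR). Without MEF replicate 2 this was 2.55 (adjusted p = 0.0427). The retained-intron transcript had log2 fold changes of -1.32 ± 0.87 over MEF (adjusted p = 0.409) and -1.61 ± 0.88 over MyoD (adjusted p = 0.314).

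**Figure D4:**
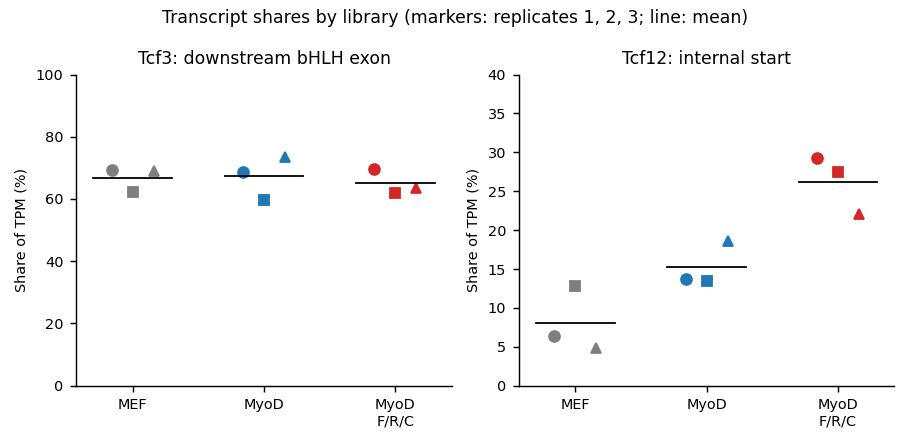
Share of transcripts with the downstream bHLH exon among Tcf3 transcripts with either exon (left) and of internal-start transcripts among all Tcf12 transcripts (right), in percent of TPM (y axes) by group (x axis); markers are replicates 1, 2 and 3 and lines are means. The Tcf3 share stays between 59.7 and 73.5% in all groups, and the Tcf12 share is 4.90 to 12.8% in MEF, 13.5 to 18.6% in MyoD and 22.0 to 29.2% in F/R/C.

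Around these genes, the myogenic bHLH genes, which are partners of the E proteins, rose with F/R/C. All 4 of them (Myod1, Myog, Myf5 and Myf6) rose in both F/R/C comparisons, beside 19.5% (over MEF) and 17.8% (over MyoD) of all genes. The 4 include Myod1, the introduced factor, and Myf5, which met the count filter only through F/R/C. Their count is thus not independent of the treatment or of the filter. Myog, which drives terminal differentiation, went from 6.42 ± 10.9 CPM in MEF and 35.1 ± 23.0 in MyoD to 1178 ± 319 in F/R/C (SD, n = 3), and Myf6, the gene of MRF4, from 0.431 ± 0.746 and 2.28 ± 0.826 to 75.1 ± 24.6. Myf5 reached 3.58 ± 0.90 CPM in F/R/C from 0.108 ± 0.186 and 0.0321 ± 0.0555. In F/R/C over MyoD the log2 fold changes were 5.07 ± 1.65 for Myog (adjusted p = 0.0427), 6.68 ± 1.40 for Myf5 (0.00821) and 5.04 ± 1.09 for Myf6 (0.00909, edgeR); Myf5, near 0 before F/R/C, has a fitted value that depends on the prior count.

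Of 15 other E-box or MyoD-restraining regulators, 5 rose and 1 fell in F/R/C against MEF, and 5 rose and 2 fell against MyoD, beside 37.6% and 33.9% of all genes called, with a median log2 fold change of 0.81 and 0.64. Zbtb18, a zinc finger repressor known to act on Id genes in myogenesis, rose by 3.36 ± 0.44 against MyoD, from 15.9 ± 9.35 to 163 ± 7.20 CPM (adjusted p = 0.00140). Heyl, a Notch effector, rose by 7.26 ± 1.23 to 32.5 ± 8.60 CPM (adjusted p = 0.00359), from 0.213 ± 0.235 CPM, a base at which the fitted value depends on the prior count. Hes6, a HES-family inhibitor of Hes1, rose from 30.8 ± 20.6 to 140.1 ± 46.4 CPM (adjusted p = 0.0199). Zeb2, an E-box repressor, rose by 1.02 ± 0.23 (adjusted p = 0.0110) and Bhlhe41 by 1.75 ± 0.52 (adjusted p = 0.0316). Snai2, a mesenchymal E-box repressor, fell by 1.66 ± 0.36, from 60.1 ± 20.3 to 19.0 ± 4.48 CPM (adjusted p = 0.00922), and Bhlha15, named after its values were seen, was the other gene that fell, at under 1 CPM in every group mean. Of 21 class II bHLH partners from other tissues only 6 had enough counts to be tested. Against MyoD, 1 of the 6 rose and 1 fell, near the 17.8% and 16.1% of all genes. Tal2 rose (2.54 ± 0.54, to 2.42 ± 0.446 CPM, adjusted p = 0.00890) and Hand2 fell (-3.31 ± 0.74, to 1.37 ± 0.102 CPM, adjusted p = 0.0106).

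Genes of BMP signalling, the pathway known to feed Id transcription, were listed for the same comparisons. Of 25 tested, 4 rose and 9 fell in F/R/C against MEF (beside 19.5% and 18.1% of all genes), and 4 rose and 6 fell against MyoD (beside 17.8% and 16.1%), with median log2 fold changes of -0.62 and -0.32. Against MyoD, the ligand gene Gdf5 rose by 3.01 ± 0.41 to 38.1 ± 19.8 CPM (adjusted p = 0.00156) and the antagonist gene Nog by 3.26 ± 0.59 to 20.6 ± 5.71 CPM (adjusted p = 0.00480). The type I receptor gene Acvrl1 fell by 2.91 ± 0.45, from 29.0 ± 10.6 to 3.85 ± 2.07 CPM (adjusted p = 0.00258), and the antagonist gene Fst by 2.66 ± 0.56, from 597 ± 352 to 94.5 ± 62.1 CPM (adjusted p = 0.00831). Against MEF, the receptor gene Bmpr1b fell by 1.78 ± 0.37 (adjusted p = 0.00623) and the extracellular modulator gene Bmper by 2.17 ± 0.44 (adjusted p = 0.00587).

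BMP-SMAD signalling also has other direct targets and feedback genes. Of 8 listed, 0 rose and 3 fell in F/R/C against MyoD, and 2 fell against MEF, counts to be read beside the 16.1% and 18.1% of all genes that fell. Bambi, a decoy receptor, fell by 2.91 ± 0.38, from 27.3 ± 7.30 to 3.62 ± 0.328 CPM (adjusted p = 0.00145), Smad6, an inhibitory SMAD, by 1.39 ± 0.31, from 20.1 ± 3.85 to 7.67 ± 2.35 CPM (adjusted p = 0.0108), and Msx2 by 2.59 ± 0.87 (adjusted p = 0.0476, edgeR). That these genes passed and the Id genes did not is no test of a difference between them. Of 5 genes that set the stability of Id proteins, 1 rose against MEF, beside 19.5% of all genes, and 0 passed against MyoD, beside 33.9%. The gene that rose was Cops5, a COP9 signalosome subunit (0.65 ± 0.22, adjusted p = 0.0488, edgeR).

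**Figure D5:**
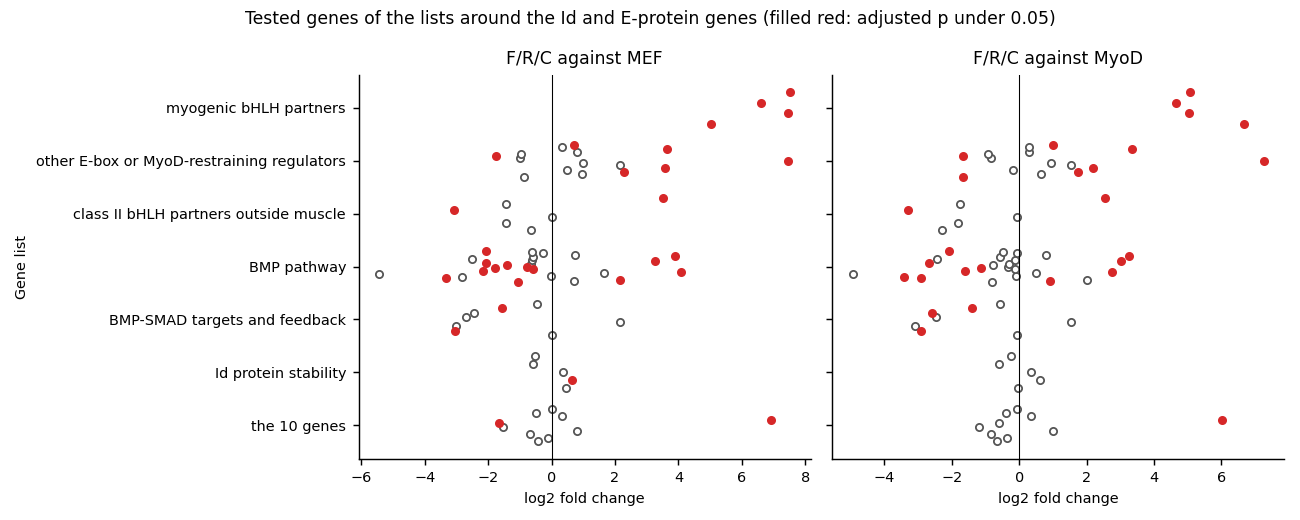
Log2 fold change (x axis) of the tested genes of 6 lists and of the 10 genes (y axis) in the F/R/C comparisons against MEF (left) and MyoD (right); filled red points passed an adjusted p under 0.05. All 4 myogenic bHLH genes lie to the right, BMP pathway genes lie on both sides, and of the 10 genes Msc (6.92 and 6.03) and, against MEF, Mdfic (-1.65) are filled.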

How the data were processed

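The labels describe 9 libraries of polyadenylated RNA in 3 groups of 3, made with a TruSeq Stranded mRNA kit. Per the submitters' processing notes, bcl2fastq 2.19, Trimmomatic 0.36, kallisto 0.44 and edgeR 3.28 were used on GRCm38.p6; annotation release, kallisto options and strand setting are not given in the sources used here. Per the file headers, each deposited table gives an estimated count and a TPM value per transcript (121843 transcripts). TPM, as deposited by the authors, was used for levels and shares; edgeR tests used the deposited estimated counts.

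Transcripts were joined to GENCODE M21 (121104 matched; the other 739 held 0.200 to 0.494% of counts and were left out), summed per gene and rounded. edgeR 4.0.16 in R 4.3.3 was run on 15714 genes (filterByExpr, minimum count 10, minimum total 15; TMM; 1 quasi-likelihood fit over the 9 libraries; two-sided; Benjamini-Hochberg per comparison; called under 0.05); SE is the absolute log2 fold change over the square root of F. Transcripts were tested likewise. The procedure was tested on simulated counts of independent libraries with the same setting of spread for every gene. That setting lacks the wide spread of the Id genes and the likeness of libraries of equal replicate number. With 3 libraries against 3, an exact permutation test cannot go below 0.1.

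The 10 genes, 6 context lists and 7 marker lists were chosen with earlier results of these data known. The text names all 10 genes and Myod1; from context lists up to 4 called genes of smallest adjusted p against MyoD and up to 2 more against MEF; and the 3 genes most correlated with each gene of average log2 CPM of at least 3, which leaves out Msc; 1 of these genes is not reported here.

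Replicate numbers in the titles were checked for pairing by the correlation of deviations from group means: 0.711, 0.715 and 0.775 for equal numbers in MEF and MyoD, above the limit of 0.1 taken for pairing; 0.140, 0.141 and 0.0691 in MEF and F/R/C and 0.0944, 0.111 and 0.144 in MyoD and F/R/C, not all above it. Alternatives were DESeq2 1.42.0, its size factors, total counts, other filters, fits of 2 groups, counts scaled from TPM, the replicate block and each replicate left out.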

Additional observations from a re-analysis of the deposited data

How the results depend on the processing

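The calls of Msc (F/R/C against MEF and against MyoD) and Mdfic (F/R/C against MEF) passed under all 17 gene-level alternatives. Their log2 fold changes were 6.0 to 9.57, 5.28 to 9.61 and -1.98 to -1.12. Msc met the count filter only through its F/R/C libraries, so its passing under these alternatives is no separate support. Total counts as scaling shifted the median of all genes to -0.13 (F/R/C over MEF) and -0.20 (F/R/C over MyoD), and the split of called genes there was 2825 higher and 3076 lower against MEF and 2295 higher and 3119 lower against MyoD, beside 3067 and 2849, and 2796 and 2531, with TMM. With MyoD alone, 0 of the 10 genes passed under any of these alternatives. Msc had too few counts to be tested in the fit of MEF and MyoD only. Over all genes, DESeq2 called 160 higher and 11 lower with MyoD alone. Without MEF replicate 3, the MEF library with the most muscle marker RNA, edgeR called 158 higher and 3 lower, against 0 with it. Depth limits Msc in MEF and MyoD, where most libraries had a count of 0.

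The number of the 10 genes called in F/R/C against MyoD was 1 to 2 with a replicate left out (2 without MyoD replicate 3, which added Tcf3, and 2 without F/R/C replicate 3, which added Tcf12). Transcripts called numbered 0 to 2 in F/R/C against MEF and 0 to 1 in F/R/C against MyoD with a replicate left out, and these were not always the same ones: without F/R/C replicate 1 a Tcf3 transcript was the only one called in both comparisons (-7.35 and -7.39), and without MEF replicate 2 a Tcf12 transcript was the only one against MEF. The number was 0 in F/R/C against MyoD with no filter, where more transcripts were tested. Ratios of Id to E-protein sums in CPM in place of TPM averaged 0.741 (MEF), 0.852 (MyoD) and 0.580 (F/R/C), below 1 where those in TPM were above it, since CPM is not scaled for length.

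With the replicate number as a block, 0 of the 10 genes changed with MyoD alone, 3 were called in F/R/C against MEF, adding Tcf3 (-0.49, adjusted p = 0.0455, edgeR), and 2 in F/R/C against MyoD, adding Id3 (-0.76, adjusted p = 0.0470); transcripts called were 1 in F/R/C against MEF and 0 against MyoD, and Id2 in F/R/C over MEF turned to 0.30. The labels do not say whether F/R/C libraries share more than a number with the controls. Each correlated best with the control library of its own number, at an r of 0.0691 to 0.144. For the blocked fit, MyoD alone gave 13 genes higher and 0 lower over all genes.

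The other changes of sign, none in a called gene, were in MyoD over MEF for Tcf12 (0.0075 with DESeq2, 0.0076 with its size factors, 0.080 with total counts, 0.024 with no filter, 0.0048 with an average CPM of at least 1, 0.012 with counts scaled from TPM) and Tcf3 (0.011 with total counts), and in F/R/C over MEF for Tcf4 (-0.076 with total counts, -0.020 with an average CPM of at least 1). The cause was not tested. With each replicate left out, log2 fold changes of MyoD over MEF ranged from -0.53 to 1.29 for Id1, -0.49 to 1.36 for Id2, -0.19 to 0.58 for Id3, -0.92 to 0.29 for Id4, -1.24 to 0.54 for Mdfi, -2.69 to 3.60 for Msc, -0.18 to 0.045 for Tcf3, -0.11 to 0.22 for Tcf4 and -0.072 to 0.063 for Tcf12. For F/R/C over MEF they ranged from -0.88 to 0.55 for Id1, -0.60 to 0.93 for Id2 and -0.25 to 0.22 for Tcf4, and for F/R/C over MyoD from -1.06 to 0.14 for Id1, -0.71 to 0.40 for Id2 and -0.21 to 0.15 for Tcf4. Of 509 fold changes of the 10 genes under alternatives, 464 kept direction and call, 6 became called, 0 lost a call and 39 changed sign.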
